A study of Rattus norvegicus with 30 samples.

Results

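Elastic fibres give a tissue the ability to stretch and recoil, and in tendon they run along and between the bundles of collagen. Each fibre has a core of cross-linked elastin, encoded by Eln, laid down on a scaffold of microfibrils that are built from fibrillins. Small glycoproteins bind the microfibrils, and fibulins and emilins sit at the border between microfibril and core, where several of them take part in bringing elastin to the scaffold. Microfibrils also occur without elastin, and they hold latent TGF-beta in the matrix.

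The genes described here were a list of 10 that encode these parts: elastin (Eln), the fibrillins (Fbn1, Fbn2), the fibulins (Fbln1, Fbln2, Fbln5), the microfibril-associated glycoproteins (Mfap2, Mfap4, Mfap5) and emilin 1 (Emilin1). They were chosen by name, with earlier results of these data known. Of the 10, 9 were found among the 13124 genes of the count table. Mfap4 was not analysed here. All 9 were kept by the filter on low values, which required a mean of 3 CPM (counts scaled to a library of 1000000) in at least 1 group and left 12558 genes for testing.

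The counts came from plantaris tendons of male Sprague Dawley rats aged 3 months. In 27 tendons the plantaris had been cut and sutured at once. The rats then received GSK2894631A, an inhibitor of hematopoietic prostaglandin D synthase, or vehicle alone by gavage 2 times a day until harvest. The groups were 7D 0 mg/kg (vehicle, n = 5), 7D 2 mg/kg (n = 4), 7D 6 mg/kg (n = 3), 21D 0 mg/kg (n = 5), 21D 2 mg/kg (n = 5) and 21D 6 mg/kg (n = 5), where 7D and 21D are the days after repair. The 3 control tendons came from rats with neither surgery nor compound. A difference from control thus combines the cut, the suture and the gavage, and in the dosed groups also the compound. Each tendon was the right plantaris of 1 rat, excised below its junction with the muscle. In such bulk tissue fewer cells of a type and less RNA per cell cannot be told apart.

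Library totals ran from 12405741 to 49909374 counts, and every gene described here had at least 9 counts in every tendon. The control tendons carried more muscle RNA than the repaired ones: 30 of 35 listed skeletal muscle genes were in the table, none was at 0 in a whole group, and together they made up 20.1% to 28.4% of a control library, against 0.00941% to 10.1% of a library from repaired tendon. Control replicate 4 had the highest muscle share, at 28.4%, and was the lowest of the 3 control tendons in 8 of the 9 genes, so counts against control are given with and without it. All 7 listed tendon markers were present in every group and did not move together. Against control 1 was higher and 3 were lower with vehicle at 7D, and 1 was higher and 2 were lower with vehicle at 21D. Of all genes tested, 35.8% were higher and 35.6% lower at 7D, and 32.2% and 33.7% at 21D. The tendon transcription factor Mkx ranged from 2.77 to 9.38 CPM in control tendons and from 0.110 to 1.66 CPM in repaired tendons, the transcription factor Scx passed in no group, the collagen chain Col1a1 was higher with vehicle at 7D (log2 fold change 1.14), and Thbs4, a matrix glycoprotein, was higher in each group at 21D (1.09 to 1.16). Levels below are CPM after TMM scaling and are compared only within a gene, and folds are log2 fold changes with their standard error (SE) from edgeR.

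The first question was whether the parts of the elastic fibre differed between repaired and unoperated tendon. Of the 9 genes, 8 were higher and none lower with vehicle at 7D than in control tendons at an adjusted p below 0.05, where 35.8% of all genes tested were higher and 35.6% lower. The median log2 fold change was 1.17 for the 9 genes and 0.05 for all genes tested. With 2 mg/kg at 7D all 9 genes were higher (35.8% of all genes tested were higher and 34% lower), and with 6 mg/kg at 7D 8 were (34.1% and 33.8%), or 5 when the fit was limited to that group and control, where Fbn1, Fbln2 and Mfap5 no longer passed (edgeR adjusted p = 0.195, 0.0538 and 0.0818). At 21D, 8 genes were higher with vehicle (32.2% and 33.7%), 7 with 2 mg/kg (33.8% and 35.3%) and 8 with 6 mg/kg (30.8% and 33.3%). None of the 9 was lower in any group. The same 3 control tendons served in all 6 comparisons, which are therefore not independent of each other. Without control replicate 4 the counts were 7, 8, 6, 7, 7 and 7, in the same order of groups.

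In 6 genes (Fbn1, Fbn2, Fbln5, Mfap2, Mfap5 and Emilin1) each of the 27 repaired tendons lay above the highest control tendon, which was so for 18.6% of all genes tested. Fbln2 lay above it in 26 of the 27, Eln in 21 and Fbln1 in 7. The skeletal muscle share was lower in the repaired groups, and other markers moved too. Of 8 macrophage markers 6, 6 and 8 were higher than control at 7D with 0, 2 and 6 mg/kg and 4, 4 and 3 at 21D, with none lower. Of 8 markers of tendon sheath and adventitial fibroblasts 2, 6 and 4 were higher at 7D, with 1 lower each time, and 5, 6 and 5 at 21D, with none lower. Among the endothelial markers tested, Tek, Tie1, Egfl7 and Vwf were higher at 7D with vehicle, Tek and Vwf with 2 mg/kg and Tek and Tie1 with 6 mg/kg. At 21D Cdh5, Kdr and Emcn were lower with 2 mg/kg, and no other endothelial marker passed. In these 6 comparisons 30.8% to 35.8% of all genes tested were higher and 33.3% to 35.6% lower. The part of these cells in the differences was not tested. With library size alone as the scaling, the median of all genes moved to between 0.51 and 0.64 against control. Relative to that median, the 9 genes were still at or above it in all 6 groups, by 0.03 for Fbln1 in 21D 6 mg/kg to 5.08 for Fbn2 in 7D 0 mg/kg.

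**Figure D1:**
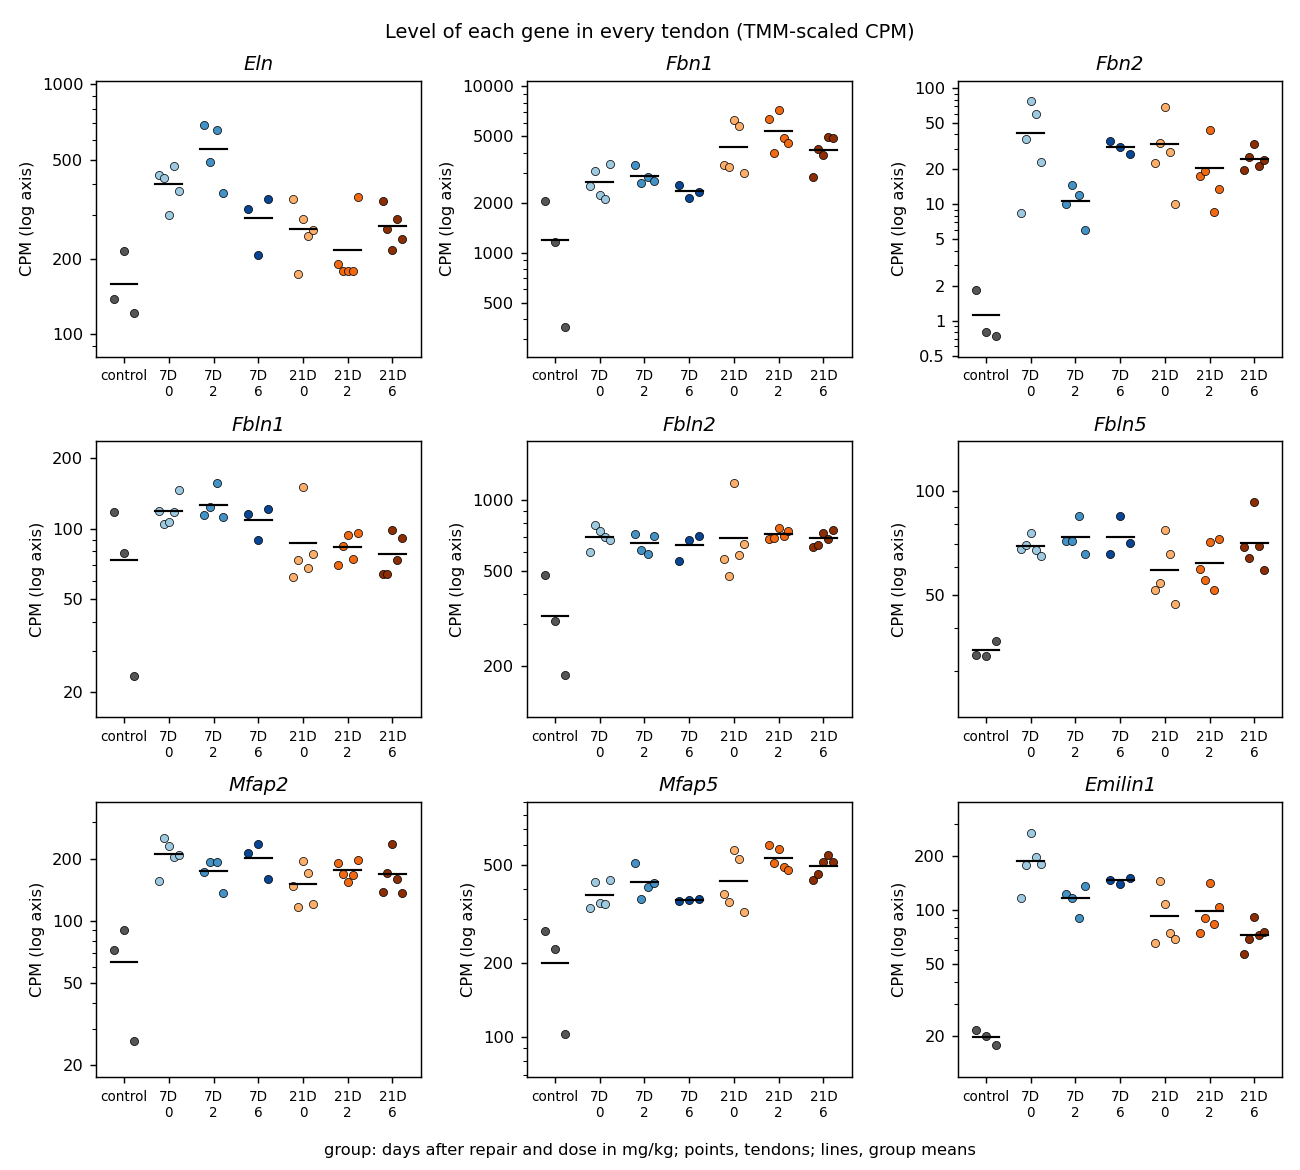
Level of each of the 9 genes in every tendon, in TMM-scaled CPM on a log axis, by group (days after repair over the dose in mg/kg). Points are tendons and lines are group means; for Fbn2 the control tendons lie between 0.735 and 1.84 CPM and the repaired tendons between 6.03 and 76.9 CPM, while for Fbln1 most repaired tendons lie within the range of the control tendons.

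**Figure D2:**
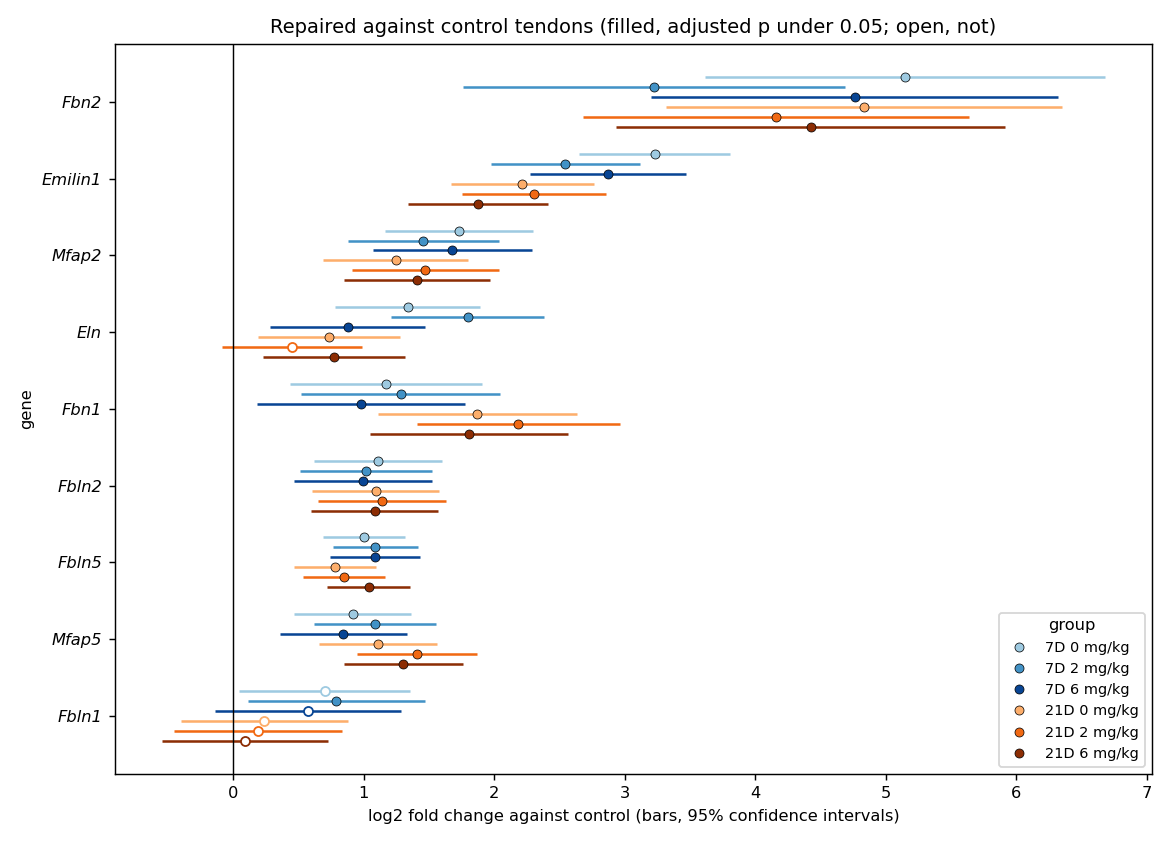
Log2 fold change of each gene in the 6 repaired groups against control, with 95% confidence intervals; filled points passed an adjusted p of 0.05 and open points did not. Fbn2 and Emilin1 stand farthest to the right, and the open points are those of Fbln1 in 5 groups and of Eln in 21D 2 mg/kg.

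Eln (ENSRNOG00000001469, chromosome 12) encodes tropoelastin, the soluble unit of the elastin core. Its level was 139, 215 and 122 CPM in the control tendons and 433, 422, 301, 472 and 374 CPM with vehicle at 7D. At 7D it was 687, 488, 660 and 368 CPM with 2 mg/kg and 318, 207 and 347 CPM with 6 mg/kg. All tendons of the 7D 0 and 2 mg/kg groups were above all control tendons, as in 31.2% and 30.1% of all genes tested. In 7D 6 mg/kg 1 tendon fell among them.

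At 21D, Eln was at 347, 174, 289, 247 and 261 CPM with vehicle, at 191, 179, 179, 180 and 356 CPM with 2 mg/kg and at 341, 264, 217, 288 and 241 CPM with 6 mg/kg. In the 2 mg/kg group 4 of the 5 tendons were within the range of the control tendons and the fifth was well above it. Against control, the log2 fold change of Eln was 1.34 (SE 0.272, adjusted p = 0.000112) in 7D 0 mg/kg, 1.80 (SE 0.285) in 7D 2 mg/kg and 0.87 (SE 0.290) in 7D 6 mg/kg. At 21D it was 0.73 (SE 0.264, adjusted p = 0.0176) with vehicle and 0.77 (SE 0.265, adjusted p = 0.0139) with 6 mg/kg. With 2 mg/kg at 21D it was 0.45 (95% confidence interval -0.09 to 0.99, adjusted p = 0.127) and did not pass.

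The calls for Eln at 7D with 6 mg/kg and at 21D were lost when either control replicate 4 or control replicate 2 was left out. Without control replicate 4 the log2 fold changes of Eln in 7D 6, 21D 0 and 21D 6 mg/kg were 0.68, 0.53 and 0.57 (adjusted p = 0.0742, 0.138 and 0.115), and without control replicate 2 they were 0.73, 0.59 and 0.62 (adjusted p = 0.0581, 0.102 and 0.0871). Vascular smooth muscle, whose cells also make elastin, had all 8 of its listed markers in the table with none at 0 in a whole group. Their summed level, in TMM-scaled CPM as for Eln, was 681 to 935 in control and 334 to 1039 in 7D 0 mg/kg. It was 227 to 377 in 7D 2 mg/kg, where Eln was highest, and 305 to 606 in 7D 6 mg/kg. At 21D it was 315 to 486, 196 to 405 and 219 to 652 with 0, 2 and 6 mg/kg. Outside 7D 0 mg/kg, every repaired tendon thus lay below every control tendon on the TMM scale. As a share of counts, without TMM scaling, these markers held 0.0408% to 0.0738% in control. Only the 2 mg/kg groups lay wholly below that range. The ranges in 7D 6 mg/kg (0.0327% to 0.0646%), 21D 0 mg/kg (0.0332% to 0.0524%) and 21D 6 mg/kg (0.0233% to 0.0641%) overlapped it. The part of these cells in the values of Eln was not tested.

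The fibrillins form the microfibril itself: Fbn1 (ENSRNOG00000007302, chromosome 3) is made throughout life, and Fbn2 (ENSRNOG00000043219, chromosome 18) is best known from developing tissue. Fbn2 counts were 39, 20 and 9 in the 3 control tendons, or 1.84, 0.801 and 0.735 CPM. In 7D 0 mg/kg tendons its level was 8.39, 36.4, 76.9, 59.5 and 23.1 CPM. The lowest of these was more than 4 times the highest control tendon, and the 5 tendons of the group spread over 9.17-fold.

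Fbn2 was at 10.01, 14.8, 11.95 and 6.03 CPM with 2 mg/kg at 7D and at 35.3, 31.2 and 27.3 CPM with 6 mg/kg at 7D. At 21D it was at 22.5, 33.7, 69.4, 28.3 and 10.2 CPM with vehicle, 17.7, 19.4, 44.0, 8.54 and 13.5 CPM with 2 mg/kg and 19.6, 25.6, 33.0, 21.5 and 24.1 CPM with 6 mg/kg. The 6 mg/kg groups were the tightest at both times, with the highest tendon 1.30-fold and 1.68-fold the lowest. Fbn2 had the largest fold change of the 9 genes in every group against control: 5.15 (SE 0.746, adjusted p = 1.37e-06), 3.22 (SE 0.712) and 4.76 (SE 0.759) at 7D with 0, 2 and 6 mg/kg, and 4.83, 4.16 and 4.42 at 21D. The few counts of the control tendons limit how well the size of these folds is known, as the 95% confidence interval of 3.61 to 6.68 in 7D 0 mg/kg shows.

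Fbn1 was at 2056, 1150 and 354 CPM in the control tendons, a 5.81-fold spread that was the widest of the 9 genes in this group. Its level with vehicle at 7D was 2511, 3112, 2221, 2096 and 3428 CPM. In 7D 2 mg/kg tendons it was 3385, 2614, 2831 and 2704 CPM, and with 6 mg/kg at 7D 2565, 2123 and 2325 CPM. The lowest of the 12 tendons at 7D was thus close to the highest control tendon.

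At 21D, Fbn1 was at 3389, 3277, 6250, 5754 and 3002 CPM with vehicle, at 6357, 3979, 7191, 4869 and 4587 CPM with 2 mg/kg and at 2832, 4230, 3860, 4944 and 4916 CPM with 6 mg/kg. These tendons lay above all control tendons and mostly above those of 7D. The log2 fold change of Fbn1 against control was 1.17 (SE 0.358, adjusted p = 0.00527), 1.28 (SE 0.371, adjusted p = 0.00366) and 0.98 (SE 0.386, adjusted p = 0.028) at 7D, and 1.87 (SE 0.371), 2.19 (SE 0.377) and 1.81 (SE 0.369) at 21D. Without control replicate 4 the call was lost in 7D 0 mg/kg (0.68, adjusted p = 0.0501) and in 7D 6 mg/kg (0.51, adjusted p = 0.171). The call in 7D 6 mg/kg was also lost without control replicate 3 (adjusted p = 0.0603) and without replicate 1 or 5 of that group (adjusted p = 0.0692 and 0.0501). At 21D with vehicle the value ran from 1.39 without control replicate 4 to 2.47 without control replicate 2, and the call was kept each time.

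Mfap2 (ENSRNOG00000008257, chromosome 5) and Mfap5 (ENSRNOG00000015505, chromosome 4) encode glycoproteins that bind fibrillin along the microfibril. Mfap2 was at 72.6, 90.6 and 26.2 CPM in control tendons, at 155, 252, 231, 203 and 209 CPM with vehicle at 7D and at 148, 116, 194, 170 and 121 CPM with vehicle at 21D. Mfap5 was at 270, 227 and 103 CPM in control tendons, at 333, 426, 350, 346 and 434 CPM with vehicle at 7D and at 381, 351, 574, 529 and 320 CPM with vehicle at 21D. Both genes were above all control tendons in every repaired tendon. The log2 fold change of Mfap2 against control was 1.73 (SE 0.276, adjusted p = 5.42e-06) in 7D 0 mg/kg and 1.25 (SE 0.270, adjusted p = 0.000295) in 21D 0 mg/kg. That of Mfap5 was 0.92 (SE 0.218, adjusted p = 0.000602) and 1.11 (SE 0.220, adjusted p = 0.000114). In the dosed groups Mfap2 lay between 136 and 236 CPM and Mfap5 between 355 and 601 CPM, with log2 fold changes of 1.41 to 1.68 and of 0.84 to 1.41 that all passed.

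Of the 3 fibulins, Fbln5 (ENSRNOG00000050539, chromosome 6) binds both tropoelastin and integrins and is needed for elastic fibres to form. It had the narrowest control group of the 9 genes, at 33.5, 33.2 and 36.8 CPM, and lay between 47.1 and 92.7 CPM in the repaired tendons. Its log2 fold change was 1.002 (SE 0.154, adjusted p = 3.16e-06) in 7D 0 mg/kg, 0.78 (SE 0.153) in 21D 0 mg/kg and 0.84 to 1.09 in the dosed groups. Fbln5 was the gene in which control replicate 4 was not the lowest tendon, and its calls were kept whichever tendon was left out.

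Fbln2 (ENSRNOG00000007338, chromosome 4), a fibulin of basement membranes and microfibrils, was at 482, 310 and 182 CPM in control tendons and between 478 and 1175 CPM in repaired tendons. Its 6 group means after repair lay within 1.11-fold of each other, from 645 ± 81.7 CPM (SD, n = 3) in 7D 6 mg/kg to 716 ± 34.0 CPM (SD, n = 5) in 21D 2 mg/kg. The log2 fold change against control was 1.11 (SE 0.238, adjusted p = 0.000206) in 7D 0 mg/kg and 0.99 to 1.14 in the other groups, each past the threshold.

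Fbln1 (ENSRNOG00000014137, chromosome 7), a fibulin found in elastic fibres and basement membranes, was the 1 gene that did not pass in most groups. It was at 118, 78.9 and 23.5 CPM in control tendons, at 105 to 147 CPM in 7D 0 mg/kg, 112 to 158 CPM in 7D 2 mg/kg, 89.8 to 122 CPM in 7D 6 mg/kg and 62.5 to 151 CPM at 21D. The log2 fold change was 0.70 (95% confidence interval 0.05 to 1.35, adjusted p = 0.0514) in 7D 0 mg/kg, 0.57 (-0.14 to 1.29) in 7D 6 mg/kg and 0.09 to 0.24 at 21D, with adjusted p of 0.147 and 0.515 to 0.815. In 7D 2 mg/kg it was 0.79 (SE 0.330, adjusted p = 0.0363), and this call was lost without control replicate 3 (adjusted p = 0.0533), control replicate 4 (0.32, adjusted p = 0.294) or replicate 4 of the 7D 2 mg/kg group (adjusted p = 0.0935). Without control replicate 2 the values in 7D 0 and 7D 6 mg/kg passed (1.15 and 1.04, adjusted p = 0.00447 and 0.0139). Without control replicate 4 the values at 21D turned to -0.23, -0.29 and -0.38, none past the threshold.

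Emilin1 (ENSRNOG00000008246, chromosome 6) encodes a glycoprotein of the border between elastin and microfibril that also restrains the maturation of TGF-beta. It was at 21.7, 20.2 and 17.8 CPM in control tendons, 117, 176, 265, 197 and 179 CPM with vehicle at 7D, 122, 117, 90.6 and 135 CPM with 2 mg/kg at 7D and 146, 140 and 151 CPM with 6 mg/kg at 7D. At 21D it was at 66.0, 144, 108, 74.9 and 69.1 CPM with vehicle, 74.3, 90.6, 140, 83.5 and 103 CPM with 2 mg/kg and 56.9, 69.1, 91.2, 72.6 and 75.7 CPM with 6 mg/kg. The lowest repaired tendon was more than 2 times the highest control tendon. The log2 fold change against control was 3.23 (SE 0.281, adjusted p = 6.48e-10), 2.55 (SE 0.276) and 2.87 (SE 0.289) at 7D and 2.21 (SE 0.266), 2.30 (SE 0.267) and 1.88 (SE 0.262) at 21D. It was second to Fbn2 in size in each of the 6 groups, and in each it had the smallest adjusted p of the 9 genes.

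The sequence in front of a gene was available for 6 of the genes in the RefSeq promoter table of the GRCr8 build, and 5 of them were searched over the 250 bases before the start given there, Fbn2 being left out. For Fbn1 and Mfap2 these bases lay wholly within the annotated span of the gene, and of the 250 only 55 lay outside it for Fbln2 and 109 for Fbln5, while for Mfap5 all did. Each motif was searched on both strands, and its share among 27457 rat promoters of that length is given with it. The GC box was searched as GGGCGG and was held by 32.4% of promoters. The CCAAT box, searched by the letters of its name, was held by 34.3%. The TATA box was searched as TATAAA (13.1%), the AP-1 motif as TGANTCA (6.36%) and the TEAD motif as GGAATG (11.8%). The CArG box was held by 1.5%. The GC box was present in Fbln2 (3 matches), Fbln5 (1) and Mfap2 (1), the CCAAT box in Mfap5 (1), and no other match was found. The GC content was 71.2% for Fbn1, 67.6% for Mfap2, 64.0% for Fbln2, 63.2% for Fbln5 and 51.6% for Mfap5, against a median of 52.0% over all promoters.

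The pair of windows below shows the contrast between a CG-rich start with a GC box and one near the median with a CCAAT box, in genes that were both higher in every repaired tendon. Only bases in front of the whole annotated gene are given, 109 for Fbln5 (chr6:126742848-126742956, minus strand) and 250 for Mfap5 (chr4:157399669-157399918, plus strand), 5′ to 3′, with the matches in capitals.
Fbln5: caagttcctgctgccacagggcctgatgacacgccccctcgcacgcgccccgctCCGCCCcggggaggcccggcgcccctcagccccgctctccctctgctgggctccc
Mfap5: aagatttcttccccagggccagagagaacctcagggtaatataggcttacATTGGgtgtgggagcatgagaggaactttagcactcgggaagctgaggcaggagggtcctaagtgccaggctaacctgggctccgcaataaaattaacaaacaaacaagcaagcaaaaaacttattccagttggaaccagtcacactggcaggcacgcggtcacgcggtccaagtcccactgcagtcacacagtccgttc
Both matches are on the minus strand of the sequence as printed, 196 bases before the start for Fbln5 and 200 bases for Mfap5. A match describes these letters and was not measured as a site of binding.

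The next question was how the levels differed between 21 and 7 days after repair, at each dose. At each dose 1 of the 9 genes passed in edgeR with all tendons fitted, each time with a lower level at 21D, where 2.47%, 5.98% and 4.55% of all genes tested were lower at 0, 2 and 6 mg/kg and 2.88%, 7.09% and 8.54% were higher. It was not the same gene at each dose. Other fits also called higher genes: Fbn1 at 2 mg/kg with DESeq2 (adjusted p = 0.0263), and, when just the 2 groups were fitted in edgeR, Fbn1 at 2 mg/kg (adjusted p = 0.0121) and Fbn1 and Mfap5 at 6 mg/kg (adjusted p = 0.0429 and 0.0399), besides Fbln1 as a second lower gene at 2 mg/kg (adjusted p = 0.0160). Emilin1 was lower with vehicle by 1.01 on the log2 scale, from 187 ± 52.9 to 92.4 ± 33.4 CPM (SD, n = 5 and 5; log2 fold change -1.01, SE 0.209, adjusted p = 0.008). With 6 mg/kg it went from 146 ± 5.52 CPM (n = 3) to 73.1 ± 12.4 CPM (n = 5), a log2 fold change of -0.996 (SE 0.235, adjusted p = 0.00643). Every 21D tendon given 6 mg/kg lay below every 7D tendon of that dose, as in 10.6% of all genes tested, and the vehicle groups overlapped in all 9 genes, where 3.46% of all genes tested lay wholly above and 3.38% wholly below. With 2 mg/kg the change of Emilin1 was -0.24 (95% confidence interval -0.69 to 0.21).

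Eln was lower at 21D with 2 mg/kg, where it went from 551 ± 150.5 CPM (n = 4) to 217 ± 77.9 CPM (n = 5), a log2 fold change of -1.34 (SE 0.237, adjusted p = 0.000551). Every 21D tendon lay below every 7D tendon of that dose, as in 5.93% of all genes tested. With vehicle the log2 fold change of Eln was -0.60 (95% confidence interval -1.06 to -0.14, adjusted p = 0.101), and with 6 mg/kg -0.11 (-0.64 to 0.42, adjusted p = 0.839). The calls of Eln at 2 mg/kg and of Emilin1 at 0 and 6 mg/kg were kept whichever tendon was left out. When the fit held just the 2 vehicle groups, Emilin1 no longer passed between them (edgeR adjusted p = 0.0603). Whether these changes differed between doses was tested by the interaction of dose and time given further on. With n of 3 to 5, the lack of a call there does not show that the changes were alike.

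Fbn1 went the other way, with log2 fold changes of 0.70 (SE 0.298), 0.90 (SE 0.321) and 0.83 (SE 0.353) at 0, 2 and 6 mg/kg, of which none passed with all tendons fitted (edgeR adjusted p = 0.152, 0.062 and 0.124). Every 21D tendon lay above every 7D tendon in Fbn1 at 2 mg/kg, as in 11.3% of all genes tested, and in Fbn1 and Mfap5 at 6 mg/kg, as in 10.8%. Mfap5 had log2 fold changes of 0.19, 0.32 and 0.46, also without a call. For the other 5 genes the values lay between -0.60 (Fbln1 at 2 mg/kg) and 0.94 (Fbn2 at 2 mg/kg), with adjusted p of 0.163 or more. Fbln1 at 2 mg/kg was the 1 of these in which all 21D tendons lay below all 7D tendons. The skeletal muscle share was lower at 7D than at 21D in the dosed groups. It was 0.0101% to 0.0125% in 7D 6 mg/kg and 0.348% to 10.1% in 21D 6 mg/kg. At 2 mg/kg it was 0.00941% to 0.0114% at 7D and 1.29% to 3.39% at 21D. With the muscle share as a covariate over the 27 repaired tendons, the log2 fold change of Emilin1 at 6 mg/kg was -0.07 (edgeR adjusted p = 0.935). At 2 mg/kg it was 0.67 (edgeR adjusted p = 0.119). Within these 2 doses the covariate and time can hardly be told apart. The value for Eln with vehicle was -0.85 and passed (edgeR adjusted p = 0.0184).

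**Figure D3:**
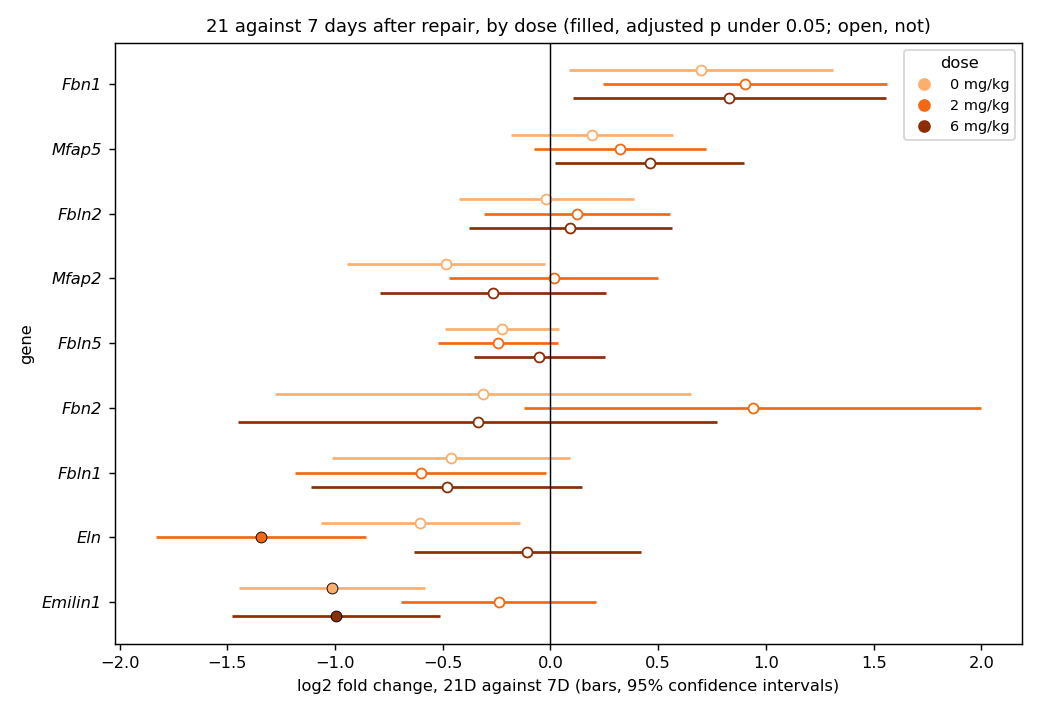
Log2 fold change at 21D against 7D for each gene at 0, 2 and 6 mg/kg, with 95% confidence intervals; filled points passed an adjusted p of 0.05. The filled points are Emilin1 at 0 and 6 mg/kg (-1.01 and -0.996) and Eln at 2 mg/kg (-1.34), and the 3 points of Fbn1 lie to the right of 0.

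Ratios of counts within a tendon do not depend on how libraries are scaled, and 4 of them were compared in the vehicle and control groups, with 12 exact permutation tests in all. The ratio of Fbn2 to Fbn1 was -10.11, -10.45 and -8.83 on the log2 scale in control tendons, -8.22, -6.42, -4.85, -5.14 and -7.21 with vehicle at 7D and -7.23, -6.60, -6.49, -7.67 and -8.20 with vehicle at 21D. Every repaired tendon of these groups was above every control tendon, by 3.43 on average at 7D and 2.56 at 21D. Each of these comparisons gave an exact two-sided p of 0.0357, the smallest that 5 against 3 tendons allow, and an adjusted p of 0.0857. The ratio of Mfap2 to Mfap5 was -1.90, -1.33 and -1.97 in control tendons, -1.10, -0.76, -0.60, -0.77 and -1.05 at 7D and -1.37, -1.60, -1.56, -1.64 and -1.40 at 21D. Every 7D tendon was above every control tendon, with a difference of 0.87 (exact permutation p = 0.0357, adjusted p = 0.0857), and at 21D the difference from control was 0.22 (exact permutation p = 0.25). It was lower at 21D than at 7D by 0.66 (difference -0.66, exact permutation p = 0.00794, adjusted p = 0.0476).

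The ratio of Eln to Fbn1 was -3.89, -2.42 and -1.54 in control tendons, -2.54, -2.88, -2.88, -2.15 and -3.20 at 7D and -3.29, -4.23, -4.44, -4.54 and -3.52 at 21D. All 5 vehicle tendons of 21D were below all 5 of 7D, with a difference of -1.28 (exact permutation p = 0.00794, adjusted p = 0.0476), although neither gene passed alone in that comparison. Against control the differences were -0.12 at 7D (exact permutation p = 0.893) and -1.39 at 21D (exact permutation p = 0.107). The ratio of Eln to Col1a1, the main collagen chain of tendon, did not differ detectably in any of the 3 comparisons, with differences of 0.06, 0.04 and -0.02 and exact permutation p of 0.929, 0.929 and 0.960 (adjusted p = 0.960 each). Its SD among tendons of a group was 0.56 to 0.96, so that differences of that size may have been missed.

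**Figure D4:**
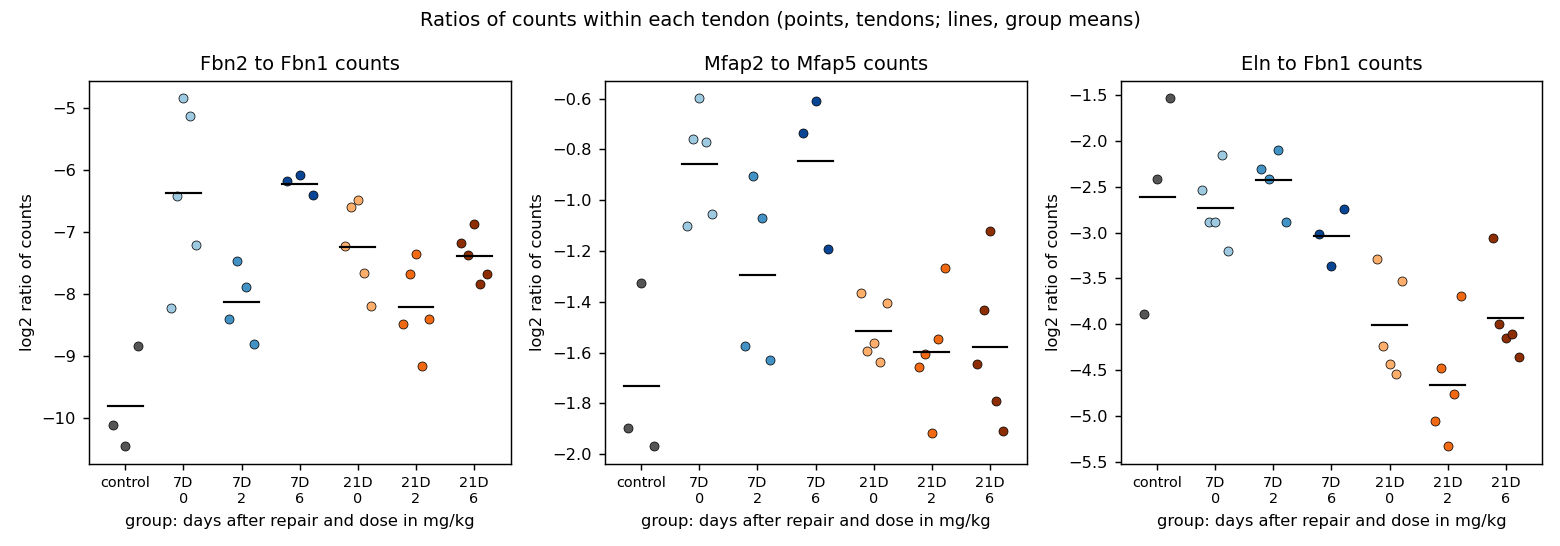
Log2 ratio of counts within each tendon for Fbn2 to Fbn1, Mfap2 to Mfap5 and Eln to Fbn1, by group; points are tendons and lines are group means. In the vehicle groups the Eln to Fbn1 ratio runs from -3.20 to -2.15 at 7D and from -4.54 to -3.29 at 21D, without overlap.

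The third question was whether the compound changed these genes. With edgeR none of the 9 passed in the test across the 3 doses at 7D, where 2.05% of all genes tested did, nor at 21D, where no gene of 12558 passed with edgeR, 1366 had an unadjusted p below 0.05 and DESeq2 called 138. At 7D, 3 of the 9 had an unadjusted p below 0.05, as had 1576 of the 12558 genes, with adjusted p from edgeR of 0.132 for Fbn2, 0.179 for Eln and 0.253 for Emilin1. DESeq2 called 1 of the 9 across the doses at 7D, Fbn2 (adjusted p = 0.0406). Fbn2 had a mean of 40.9 ± 27.6 CPM (SD, n = 5) with vehicle, 10.7 ± 3.69 CPM (n = 4) with 2 mg/kg and 31.3 ± 4.04 CPM (n = 3) with 6 mg/kg. Against vehicle at 7D, 0.908% of all genes tested were higher and 1.45% lower with 2 mg/kg, and 0% and 0.39% with 6 mg/kg, and none of the 9 passed with edgeR. DESeq2 called 2 of the 9 lower with 2 mg/kg, Fbn2 (adjusted p = 0.00656) and Emilin1 (adjusted p = 0.0357). The log2 fold change of Fbn2 at 2 against 0 mg/kg was -1.92 (SE 0.531, adjusted p = 0.0521), just short of the threshold, and at 6 against 0 mg/kg it was -0.38 (95% confidence interval -1.52 to 0.75).

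The value for Fbn2 at 2 mg/kg passed without replicate 1 of 7D 0 mg/kg (-2.19, adjusted p = 0.0122), which was the lowest tendon of that group at 8.39 CPM, and without replicate 5 (-2.07, adjusted p = 0.0446). Emilin1 was at -0.68 (SE 0.223, adjusted p = 0.105) at 2 against 0 mg/kg and passed without replicate 1 of 7D 0 mg/kg (-0.81, adjusted p = 0.0368). Eln was at 0.46 (95% confidence interval -0.02 to 0.95) at 2 mg/kg and at -0.46 (-0.999 to 0.08) at 6 mg/kg against vehicle. Other markers differed between the same groups: the skeletal muscle share was 0.00941% to 0.0114% in 7D 2 mg/kg and 0.182% to 1.33% in 7D 0 mg/kg. The 8 listed markers of tendon sheath and adventitial fibroblasts, all in the table and none at 0 in a whole group, held 0.502% to 1.19% of counts in 7D 2 mg/kg against 0.188% to 0.327% in 7D 0 mg/kg and 0.207% to 0.361% in 7D 6 mg/kg. The part of these markers in the dose values was not tested beyond the muscle covariate. With it, Fbn2, Eln and Emilin1 passed across doses at 7D (edgeR adjusted p = 0.0494, 0.00547 and 0.00311), as did 1687 of the 12558 genes, against 258 without it. At 7D the muscle share separated vehicle from both doses, at 0.00941% to 0.0125% of counts in the 7 dosed tendons, so that the covariate and the dose can hardly be told apart there.

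For the other 6 genes the changes with dose at 7D lay between -0.27 and 0.17 on the log2 scale. At 21D the 9 genes lay between -0.67 (Fbn2 at 2 mg/kg, 95% confidence interval -1.64 to 0.30) and 0.32 (Fbn1 at 2 mg/kg, -0.29 to 0.93). The interaction of dose and time passed in none of the 9 genes, where 0.39% of all genes tested passed. The smallest adjusted p from edgeR among them was that of Eln (0.321), followed by Emilin1 (0.556). With n of 3 to 5 the intervals stayed wide, and for Fbn2 at 6 against 0 mg/kg at 21D the 95% confidence interval ran from -1.38 to 0.56.

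Across the 27 repaired tendons the 9 genes did not vary as 1 block. Pearson's r of log2 CPM was highest for Fbn1 and Mfap5 (0.89), then for Fbln5 and Mfap2 (0.64) and for Fbln1 and Emilin1 (0.62). It was lowest for Eln and Fbn1 (-0.49), Fbn1 and Emilin1 (-0.48) and Mfap5 and Emilin1 (-0.39). Mfap2 and Mfap5 had r = 0.05, and Fbn1 and Fbn2 had r = 0.05. These values describe 27 tendons that share groups, times and library scaling, and no test was made of them.

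**Figure D5:**
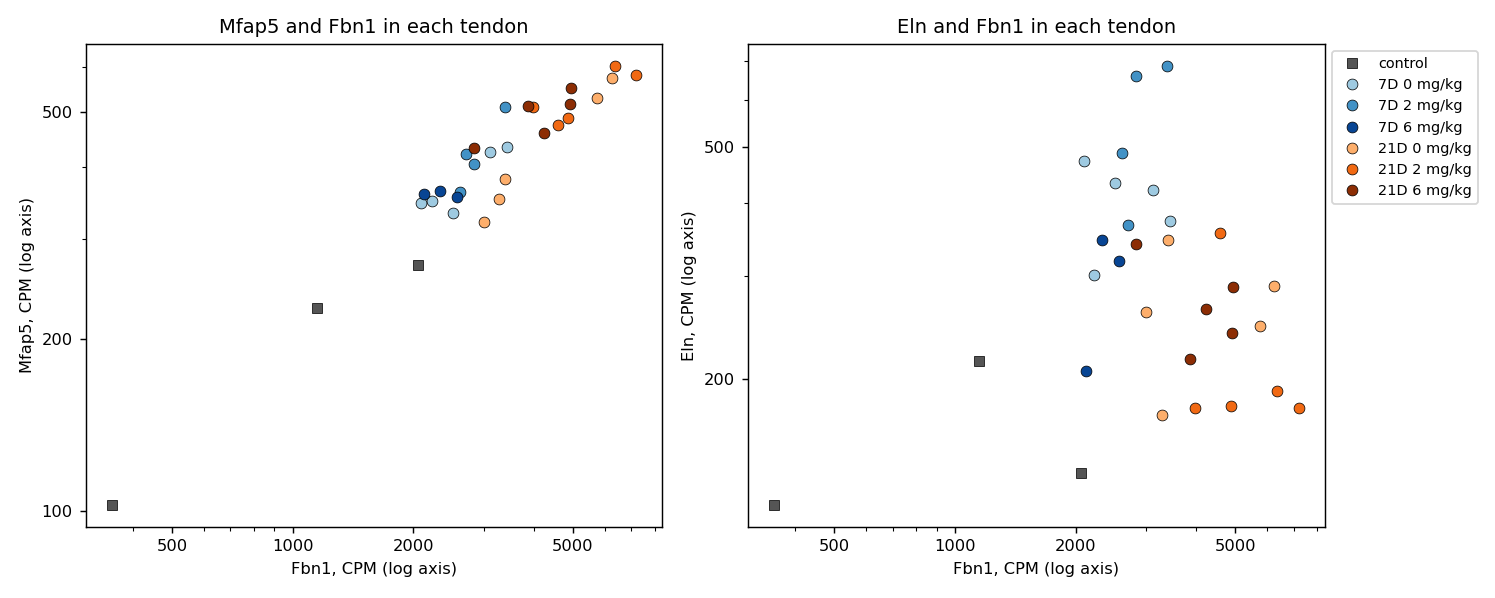
Mfap5 against Fbn1 and Eln against Fbn1 in all 30 tendons, in TMM-scaled CPM on log axes; circles are repaired tendons and squares are control tendons, coloured by group. Mfap5 rises with Fbn1 in both kinds of tendon, while among the repaired tendons the highest Eln levels (488 to 687 CPM) are at 7D with 2 mg/kg and the highest Fbn1 levels (5754 to 7191 CPM) at 21D.

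The genes outside the list whose log2 CPM followed a member most closely over the 27 repaired tendons also differed between members. Fstl1 stood first for both Fbn1 (r = 0.94) and Mfap5 (r = 0.91), and was followed for Fbn1 by Clstn1 and Phldb1 (both 0.92). For Fbn2 they were Fat4 (0.86), Lrrc15 (0.84) and Igsf10 (0.84). For Emilin1 they were Mcm2 (0.92), which encodes part of the DNA replication helicase, Plppr2 (0.92) and Fblim1 (0.90). For Eln the closest gene reached only 0.79 (RGD1310507), next to Hdc (0.79), the enzyme that makes histamine. The closest to Fbln5 was Ppib (0.79), to Mfap2 Rtl3 (0.81), to Fbln1 Dbnl (0.79) and to Fbln2 Rhbdf1 (0.72).

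Other genes that act on elastic fibres were followed in 3 lists. Of 26 genes of fibre assembly, 24 were tested. With vehicle at 7D 13 were higher than control, 5 lower and 6 without a call, with a median log2 fold change of 0.69. Of all genes tested, 35.8% were higher and 35.6% lower in that comparison. Efemp2, a fibulin that brings lysyl oxidase to elastin, was at 32.8 to 43.7 CPM in control and 190 to 269 CPM with vehicle at 7D (log2 fold change 2.57, SE 0.173, adjusted p = 1.64e-11). The lysyl oxidases Loxl1 and Lox, which cross-link elastin and collagen, were higher by 2.61 (SE 0.266) and 2.503 (SE 0.300). Ltbp3, which binds latent TGF-beta, was higher by 1.17 (SE 0.189). The 5 lower genes, named after their values were seen, were Ltbp4 (-0.86), Adamtsl2 (-1.44), Adamtsl3 (-0.89), Adamtsl4 (-0.60) and Mmrn1 (-1.16). In the other 5 groups 11 to 13 of the 24 were higher than control and 2 to 4 lower, where 30.8% to 35.8% of all genes tested were higher and 33.3% to 35.3% lower. At 21D against 7D with vehicle, 3 of the 24 were higher and 1 lower, against 2.88% and 2.47% of all genes tested. Efemp2 was at 117 to 175 CPM (log2 fold change -0.75, SE 0.133, adjusted p = 0.00272), and Emilin3, an emilin, went from 0.384 to 2.01 CPM to 2.08 to 9.23 CPM (log2 fold change 2.29, SE 0.465, adjusted p = 0.00722). The other two that were higher at 21D were Ltbp4 (0.90, SE 0.194), which binds latent TGF-beta and fibulins, and Adamtsl5 (0.79, SE 0.190), named after their values were seen.

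Of 10 listed genes for the degradation of elastin, 7 were tested, and 6 were higher and none lower with vehicle at 7D than in control, with a median log2 fold change of 2.65. In the other 5 groups 6 or 7 of the 7 were higher. Of all genes tested, 35.8% were higher with vehicle at 7D and 30.8% to 35.8% in the other groups. The 4 with the smallest adjusted p were Mmp14 (4.48, SE 0.315), a membrane-bound metalloproteinase that activates Mmp2, then Mmp2 (2.10, SE 0.247), a gelatinase, Ctsl (1.36, SE 0.193) and Ctsk (2.65, SE 0.417), both lysosomal cathepsins. The largest log2 fold changes of the list were those of Mmp12 (8.23, SE 1.46) and Mmp9 (7.85, SE 1.49), named after their values were seen. None of the 7 passed at 21D against 7D with vehicle, where Ctsl was at -0.37 (adjusted p = 0.150) and Mmp14 at -0.34 (adjusted p = 0.366). Macrophages are a known source of cathepsins, and all 8 of their listed markers were in the table. None was at 0 in a whole group, and they held 0.0227% to 0.127% of counts in control and 0.226% to 0.529% with vehicle at 7D. The part of these cells in the values was not tested.

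All 10 listed genes for receptors of elastin and fibrillin were tested. With vehicle at 7D 7 were higher and 1 lower than in control, with 7 or 8 higher and 1 lower in the other 5 groups. Of all genes tested, 35.8% were higher and 35.6% lower with vehicle at 7D. In the other groups 30.8% to 35.8% were higher and 33.3% to 35.3% lower. Glb1 (1.86, SE 0.204), whose splice form is the elastin binding protein, and Ctsa (1.35, SE 0.205), its partner in the lysosome and at the cell surface, were among the higher genes, as was Itga5 (1.57, SE 0.196), an integrin chain. Itgb6, which forms an integrin that activates TGF-beta, was the lower one, at 98.0 to 138 CPM in control and 1.398 to 7.97 CPM with vehicle at 7D (log2 fold change -5.02, SE 0.972, adjusted p = 6.3e-05). At 21D against 7D with vehicle none of the 10 passed, and Itgb6 and Itgav were at 2.31 (SE 0.837, adjusted p = 0.0940) and 0.49 (SE 0.283, adjusted p = 0.300). No gene of the 3 lists passed at 2 or at 6 against 0 mg/kg at 7D. Across the doses there 1 gene of fibre assembly, Ltbp4, passed (edgeR adjusted p = 0.049), where 2.05% of all genes tested did.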

How the data were processed

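RNA of whole plantaris tendons was sequenced as 50 base single-end reads. Per the labels and the study's methods, the authors trimmed reads with fastp, aligned them with STAR to rn6 and deposited counts of reads per gene for Ensembl release 95, having removed 4 samples on read quality. The study's methods leave 1 further tendon in the 7D 6 mg/kg group, for which the labels and counts used here held no entry. The deposited table of comparisons (log2 fold changes, p-values) was used only for chromosomes. Counting by strand is not given in the sources used here.

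The counts of 30 tendons were fitted in edgeR 4.0.16 (R 4.3.3) with a mean for each of 7 groups, TMM scaling, a filter of a mean of 3 CPM in at least 1 group (12558 of 13124 genes kept) and the quasi-likelihood F-test. Adjusted p is Benjamini-Hochberg over all kept genes, with 0.05 as the threshold. Ratios used a pseudocount of 0.5 and exact two-sided permutation tests (scipy 1.17.1). A count of 3 was worth 0.0601 to 0.242 CPM. None of the 52 pairs of tendons within a group agreed within sampling noise, and pairs across groups were not checked. In simulated data for 7D 0 mg/kg against control, 77 of 100 genes changed by 1 on the log2 scale and 97 of 100 changed by 2 were recovered among 12558 genes. The simulation changed only these genes, equally up and down, from 1 mean profile. In the data 8966 genes were called in that comparison, so that recovery there may differ. Alternatives were other scalings, filters, covariates, DESeq2 1.42.0, and each tendon left out. Replicates are separate rats, and the labels tie no number to a shared litter, batch or day.

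The genes and lists were chosen with earlier results of these data known. All listed genes were named in each comparison. From the other lists, the 4 genes with the smallest adjusted p in 7D 0 mg/kg against control and the 2 in 21D against 7D with vehicle were named, with the 3 closest genes by r.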

Additional observations from a re-analysis of the deposited data

Results flagged for a closer look

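In 3 of 45 sets of values (each of the 9 genes in each of the 5 groups with 4 or 5 tendons) tested for a tendon far from the others, 1 tendon stood apart by Dixon's criterion, where chance gives about 1 in 20. Eln was at 356 CPM in replicate 5 of 21D 2 mg/kg, against 179 to 191 CPM in the other 4 tendons. Without it the log2 fold change of Eln against control was 0.20, and that against 7D at 2 mg/kg was -1.60. Replicate 3 of 21D 0 mg/kg stood apart in both Fbln1, at 151 CPM against 62.5 to 78.2 CPM, and Fbln2, at 1175 CPM against 478 to 654 CPM. Without it, the log2 fold change of Fbln1 against control was -0.03, that of Fbln2 was 0.84 (edgeR adjusted p = 0.000601), and neither gene passed at 21D against 7D with vehicle.

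In Mfap2, each tendon given 2 mg/kg lay below the vehicle mean at 7D and above it at 21D. The mean difference from vehicle was -0.27 at 7D and 0.25 at 21D, which are 0.52 apart on the log2 scale. In Mfap5 at 6 mg/kg the tendons were likewise split, with mean differences of -0.06 and 0.23, which are 0.29 apart. The interaction of dose and time in edgeR gave an adjusted p of 0.897 for Mfap2 and 0.960 for Mfap5.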

How the results depend on the processing

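All 48 calls against control kept their direction under each alternative run, and none of the 41 reversed values belonged to a called result. Of the counts of the 9 genes, fitting only the groups compared gave 5 higher in 7D 6 mg/kg against control (8 with all tendons). At 21D against 7D the same setting gave 0 lower at 0 mg/kg (main 1), 1 higher and 2 lower at 2 mg/kg (0 and 1) and 2 higher at 6 mg/kg (0). With the muscle share as a covariate, 2 were lower with vehicle and 0 with the higher dose (1 each), 1 was higher and 2 lower at 2 against 0 mg/kg at 7D, 1 was lower at 6 against 0 mg/kg at 7D, 3 passed across doses at 7D and 2 in the interaction (0 each). DESeq2 gave 1 higher at 21D against 7D at 2 mg/kg, 2 lower at 2 against 0 mg/kg at 7D and 1 across doses at 7D (0 each). The cause was not tested. Leaving out 1 tendon gave 0 to 2 lower at 2 against 0 mg/kg at 7D and 0 to 1 across doses.

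Replicate numbers gave no clear pairing of the tendons. Over 76 pairs with the same number the median r of deviations was 0.01 (-0.70 to 0.68), against 0.01 over 307 other pairs. Of 30 tendons 10 correlated best with their own number, and this count was not tested against chance. With the replicate block, 2 genes (Fbn2 and Emilin1) were lower at 2 against 0 mg/kg at 7D and 2 passed across doses at 7D (0 each). Fbln2 at 21D against 7D at 6 mg/kg turned to -0.000272 and Fbn2 at 6 against 0 mg/kg at 7D to 0.17 with the block.

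Other reversals were of uncalled values. Library size alone gave -0.014 for Mfap2 at 21D against 7D at 2 mg/kg. The covariate gave -0.062 for Fbln2, -0.083 for Mfap2 and 0.67 for Emilin1 at 21D against 7D at 2 mg/kg, and -0.082 for Fbln2, 0.035 for Fbln5 and 0.46 for Fbn2 at 6 mg/kg, and 0.24 for Eln at 6 against 0 mg/kg at 7D. Leaving out 1 tendon moved Fbln1 against control from -0.23 to 0.70 in 21D 0 mg/kg, -0.29 to 0.63 in 21D 2 mg/kg and -0.38 to 0.55 in 21D 6 mg/kg. At 21D against 7D it moved Fbln2 from -0.29 to 0.089 and Fbn2 from -0.78 to 0.046 at 0 mg/kg, Mfap2 from -0.084 to 0.071 at 2 mg/kg, and Eln from -0.30 to 0.0396, Fbln2 from -0.0087 to 0.16 and Fbln5 from -0.17 to 0.058 at 6 mg/kg. The ratio of Eln to Col1a1 ran from -0.49 to 0.44 in 7D 0 mg/kg and -0.50 to 0.42 in 21D 0 mg/kg against control and from -0.22 to 0.21 at 21D against 7D. That of Eln to Fbn1 ran from -0.75 to 0.42 in 7D 0 mg/kg against control and from -1.45 to -1.13 at 21D against 7D, and that of Mfap2 to Mfap5 from -0.72 to -0.59. Both ratios then had an adjusted p of at least 0.0952, since 5 against 4 tendons cannot give a smaller exact p than they did.

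Counts over all genes moved by more than 1.5 times in some fits. At 21D against 7D they were 672 at 0 mg/kg (DESeq2 1496, at least 1.5-fold 428), 1641 at 2 mg/kg (covariate 2502) and 1643 at 6 mg/kg (covariate 442). At 7D they were 296 at 2 against 0 mg/kg (DESeq2 710, covariate 2120), 49 at 6 against 0 mg/kg (DESeq2 194, only the groups compared 103, covariate 1017, muscle list left out of scaling 10) and 258 across doses (DESeq2 572, covariate 1687). The interaction had 49 (DESeq2 181, covariate 1238, block 28, muscle list left out 8, only the groups compared 31). At 21D edgeR gave 0 in each dose comparison, while DESeq2 gave 19 at 2 mg/kg, 1 at 6 mg/kg and 138 across doses. Depth limits Fbn2 in control tendons, where the counts were 9 to 39.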
